A study of Mus musculus with 4 samples.

Results

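Activin, inhibin and follistatin make up a secreted signalling system that was measured here through 6 genes, namely Fst, Inha, Inhba, Inhbb, Acvr2a and Acvr2b. The genes were taken by name, with earlier results of these data known, and all 6 were found among the 19321 gene symbols of the deposited table. The data are single-cell RNA-seq of gonads from XX mouse embryos of the strain C57BL/6, with 4 libraries, 1 for each of the embryonic days E11.5, E12.5, E13.5 and (latest) E14.5. No treatment or mutant allele is named for any of them, and how many embryos were pooled into a library is not given in the sources used here. With 1 library per stage, a stage and its library cannot be told apart, no test between stages was possible, and each interval below covers counting error only.

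Activins are dimers of beta subunits, encoded by Inhba (beta A) and Inhbb (beta B). A beta subunit joined to the alpha subunit, encoded by Inha, gives an inhibin, which opposes activin, and follistatin, the product of Fst, binds activin outside the cell and keeps it from its receptors. Acvr2a and Acvr2b encode the type II receptors that bind activin and pass the signal to type I receptors, and from there to SMAD2, SMAD3 and SMAD4. In the fetal ovary follistatin is known as a product of the supporting lineage, downstream of WNT4, RSPO1 and FOXL2, while in the fetal testis activin acts on germ cells and on the growth of the cords.

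Cells were placed in classes by detection of other genes. Supporting cells, the lineage that gives rise to granulosa cells, had UMIs (unique molecular identifiers, each marking a captured transcript) of at least 3 of the 4 genes Wnt4, Wnt6, Irx3 and Runx1. Surface epithelium cells had Upk3b with Krt19 or Krt7, interstitial cells had Col1a1 with Tcf21, and germ cells had at least 3 of the 6 genes Dazl, Ddx4, Dnd1, Mael, Dppa5a and Mov10l1. The libraries held 4787 to 4916 cells, with a median of 11361 to 14258 UMIs per cell and 69458291 to 80377418 UMIs in all, and 4693 to 4800 cells were kept after removal of called doublets and of cells with many mitochondrial UMIs. In order of stage there were 1828, 2186, 1809 and 976 supporting cells, 751, 833, 752 and 734 surface epithelium cells, 376, 312, 734 and 321 interstitial cells, and 245, 650, 753 and 2410 germ cells. A cell could belong to more than 1 class, and 744 to 1743 cells per library belonged to none. Markers that the rules did not use were highest in their own class, over the 4 libraries summed, for 7 of 7 supporting, 6 of 6 surface epithelium, 7 of 7 interstitial and 7 of 7 germ genes. Foxl2, a defining gene of pre-granulosa cells, was nonetheless near 0, with 2, 3, 6 and 2 UMIs in all supporting cells in order of stage. At E11.5 its level was 0.0723 CPM (UMIs per 1000000 UMIs of the class) there and 0.126 CPM in germ cells, and counts this low do not show whether the cells express it. Msln, a mesothelial marker, was also near 0, at 0.0777 to 1.22 CPM in the surface class. The summed level of the Sertoli markers Sox9, Amh, Dhh and Ptgds in supporting cells was 17.0 to 22.7 CPM, and Amh itself was at 0.470 to 0.545. Of 19208 distinct cell barcodes, 175 occurred in at least 2 libraries.

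The 6 genes lie on 4 chromosomes (mouse genome GRCm38, RefSeq). Fst spans 114452262 to 114458989 on chromosome 13, and Inhba spans 16004256 to 16031609 on the same chromosome. Inha spans 75507077 to 75510366 and Inhbb spans 119415463 to 119422248, both on chromosome 1. Acvr2a spans 48814109 to 48903264 on chromosome 2, and Acvr2b spans 119401583 to 119442148 on chromosome 9. In the GENCODE annotation the 3′ end of Acvr2a is overlapped over 446 bases by the last part of Orc4, an origin recognition complex gene on the opposite strand that is also in the table. The 3′ end of Inhba is overlapped over 6240 bases by Gm48444, an antisense gene that is not in the table. The sources used here do not say whether counting used the strand, so reads of these overlaps cannot be assigned with certainty. The beta subunit genes are shown by the 250 bases before their RefSeq start (GRCm38.p6), because these paralogs, which give activin A and activin B, were highest in different classes. The Inhba window is chr13:16011601-16011850 on the plus strand, before 1 of the starts of this gene, and the Inhbb window is chr1:119422249-119422498 on the minus strand. Each reads 5′ to 3′, and capitals mark matches to the letters CTTTG in either orientation, the core of the site bound by the WNT effectors TCF and LEF.
Inhba: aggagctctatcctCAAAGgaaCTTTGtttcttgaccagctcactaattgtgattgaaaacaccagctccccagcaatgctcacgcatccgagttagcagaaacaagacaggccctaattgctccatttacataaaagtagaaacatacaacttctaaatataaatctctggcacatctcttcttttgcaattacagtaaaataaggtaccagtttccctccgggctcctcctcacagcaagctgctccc
Inhbb: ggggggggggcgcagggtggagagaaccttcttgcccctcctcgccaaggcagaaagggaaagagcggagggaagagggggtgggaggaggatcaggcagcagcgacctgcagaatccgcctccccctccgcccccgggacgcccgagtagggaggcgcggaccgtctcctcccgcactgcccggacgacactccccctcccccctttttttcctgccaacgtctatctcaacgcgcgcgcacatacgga
The Inhba window was 43.2% G and C, against 68.0% in the Inhbb window. CTTTG was found in the Inhba window 228 and 236 bases before the start, once in each orientation, and not in the Inhbb window. Of 32851 promoter windows of this length, 48.6% held it, so a match is common. Neither window held AGGTCA, the recognition site of nuclear receptors such as SF1 (14.02% of windows), or GATAA, a core of GATA factor sites (22.6%), in either orientation. The windows of Acvr2b and Acvr2a, searched in the same way, held CTTTG 77 bases before the start and no match, respectively. A match here is a string of letters and was not tested as a binding site.

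**Figure D1:**
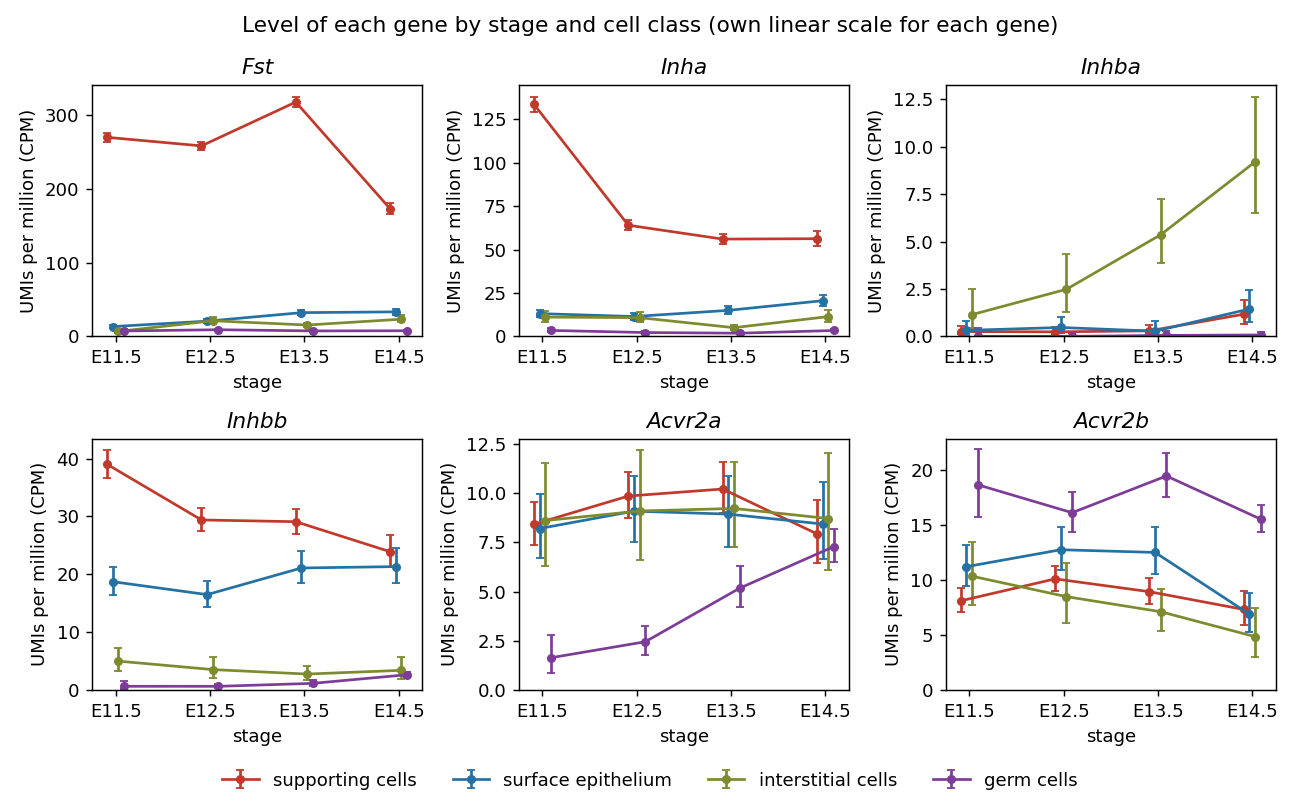
Level of each gene (CPM, linear axes with their own scale) at the 4 stages in supporting, surface epithelium, interstitial and germ cells. Points are sums over all cells of a class in 1 library and bars are exact 95% Poisson intervals. Fst, Inha and Inhbb are highest in supporting cells at each stage, Inhba in interstitial cells and Acvr2b in germ cells.

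Fst had the most UMIs of the 6 genes and its highest level in supporting cells. In order of stage, its level in supporting cells was 269.8, 258, 318 and 173 CPM. The highest level was thus at E13.5 and the lowest at E14.5, with exact 95% Poisson intervals of 311 to 325 and 166 to 180 CPM, while those of E11.5 (264 to 276) and E12.5 (252 to 264) just overlapped. In surface epithelium cells Fst stood at 13.3, 20.6, 32.1 and 33.2 CPM, in interstitial cells at 6.70, 21.1, 15.3 and 23.2 CPM, and in germ cells at 7.31, 8.97, 7.35 and 7.57 CPM. Supporting cells therefore held 40.3, 12.2, 20.7 and 7.44 times the interstitial level, a ratio smallest at E14.5. With cells of exactly 1 class, which leaves out cells that met several rules, the ratios were 39.6, 49.1, 105.8 and 24.6, again smallest at E14.5 but largest at E13.5. Of all 28950 Fst UMIs, 86.3% were in cells of the supporting class.

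Fst was also the member found in most supporting cells. With each cell thinned to 5000 UMIs, 54.5% of supporting cells at E11.5 had at least 1 Fst UMI, followed by 53.5%, 61.9% and 42.4% at the later stages. Without thinning the shares were 73.0%, 69.6%, 75.8% and 57.8%. The exact 95% interval at E14.5 (39.3% to 45.6%) lay below those of the other stages. With cells of exactly 1 class the shares were 56.2%, 57.2%, 68.2% and 56.8%, and E14.5 was no longer lower than E11.5 and E12.5. Cells differed widely, since the median thinned supporting cell had 1 Fst UMI at E11.5 to E13.5 and 0 at E14.5, while the highest had 9 to 16. In thinned germ cells the share was 2.04% to 4%, at a median unthinned depth of 15541 to 31268 UMIs against 10727 to 14050 in supporting cells. Erythroid cells, which should lack these genes, were few. At a median depth of 26283 UMIs, 0 of 81 had an Fst UMI at E11.5 after thinning, and the 12, 12 and 45 of the later stages had shares of 16.7%, 0% and 6.67%.

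Inha, the alpha subunit of inhibin, stood at 134 CPM in supporting cells at E11.5, then at 64.0, 56.0 and 56.3 CPM. The E11.5 library was thus set apart from the 3 later ones, which lay close together. In surface epithelium cells Inha was at 13.1, 11.4, 15.0 and 20.5 CPM, in interstitial cells at 11.1, 10.8, 4.99 and 11.4 CPM, and in germ cells at 1.81 to 3.40 CPM. Detection followed the same order, with 42.5%, 26.1%, 22.8% and 21.9% of thinned supporting cells holding a UMI. Supporting cells held 4.94 to 12.04 times the interstitial level, and 9.45 to 16.7 times with cells of exactly 1 class.

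Inhbb, the beta B subunit, was shared by supporting and surface epithelium cells. It stood at 39.0, 29.4, 29.1 and 23.9 CPM in supporting cells and at 18.7, 16.5, 21.1 and 21.3 CPM in surface epithelium cells. The distance between these classes narrowed from 2.08-fold at E11.5 to 1.12-fold at E14.5, where the 95% interval of the log2 ratio (-0.10 to 0.43) included 0. Cells that met both rules count on both sides of this ratio. They were 8.26% of surface epithelium cells at E11.5 and 39.5% at E14.5, and how far the narrowing follows from the growing overlap was not tested. Interstitial cells held 2.74 to 4.98 CPM, below both, and germ cells 0.626 to 2.63 CPM. Thus Inha and Inhbb, the subunits of inhibin B, were both highest in supporting cells, whereas surface epithelium cells held 1.12-fold to 2.08-fold less Inhbb and 2.74-fold to 10.2-fold less Inha.

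Inhba, the beta A subunit, was rare and lay in other cells. It had 280 UMIs in all 4 libraries, of which 35.4% were in interstitial cells and 47.5% in cells of no class. In interstitial cells it stood at 1.15, 2.48, 5.36 and 9.20 CPM in order of stage, from 6, 12, 43 and 38 UMIs. Each stage was higher than the one before, and the interval at E14.5 (6.51 to 12.6 CPM) lay above those at E11.5 and E12.5. The E14.5 level was 8.01-fold that at E11.5, but their 44 UMIs were under the 50 asked for by the rule of size given below. Supporting cells held 0.253, 0.236, 0.291 and 1.17 CPM and surface epithelium cells 0.316, 0.466, 0.274 and 1.44 CPM. Of the 15 UMIs behind the supporting value at E14.5, 4 were in cells of exactly 1 class, where the level was 0.565 CPM. Germ cells had 0 Inhba UMIs at E11.5 and E12.5, which allows up to 0.378 and 0.156 CPM (3 counts), then 1 and 3 UMIs.

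Most Inhba UMIs outside the 4 classes were in cells with a UMI of 1 stromal gene. Cells of no class with a UMI of Col1a1 or Tcf21, but not both, held Inhba at 1.63, 4.13, 8.08 and 11.3 CPM, close to the interstitial values, against 0.532 to 0.921 CPM in the other cells of no class. Counted together with the interstitial class, a grouping chosen after the values were seen, these cells had 17 Inhba UMIs at E11.5 and 75 at E14.5. Their level was 7.13-fold higher at E14.5 and met the rule of size. The 87 interstitial cells with an Inhba UMI also differed in other genes from the 1656 without, at a like median depth of 11273 and 11245 UMIs. Lum, which encodes the matrix proteoglycan lumican, was at 135 against 31.7 CPM, Dcn (decorin) at 265 against 149.9 CPM, and the mesothelial gene Upk3b at 14.1 against 95.2 CPM. In the Col1a1 or Tcf21 cells of no class the 78 with Inhba had Lum at 201 CPM against 29.6 CPM in the other 1404. This split was made after the values were seen, and the cells with Inhba come mostly from the later libraries.

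Acvr2a, a type II receptor, was alike in the somatic classes, while its germ cell level was lower at first and near theirs at E14.5. It stood at 8.43, 9.86, 10.2 and 7.94 CPM in supporting cells, 8.21, 9.09, 8.94 and 8.44 CPM in surface epithelium cells and 8.61, 9.10, 9.23 and 8.72 CPM in interstitial cells. The intervals of these classes overlapped at each stage, and which class was highest changed between stages. In germ cells it stood at 1.64, 2.45, 5.17 and 7.29 CPM, each stage higher than the one before. Orc4, which overlaps its 3′ end, was at 23.4, 29.1, 28.1 and 38.9 CPM in germ cells, a 1.66-fold range against 4.45-fold for Acvr2a. Among E14.5 germ cells, Acvr2a was at 7.34 CPM in the 2110 with a UMI of the meiotic gene Stra8 and at 7.07 CPM in the 300 without, and at E13.5 at 6.44 and 4.72 CPM. The intervals of the cells with and without Stra8 overlapped at both stages.

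Acvr2b, the other type II receptor, was highest in germ cells at each stage, at 18.7, 16.1, 19.5 and 15.5 CPM. Supporting cells held 8.10, 10.1, 8.93 and 7.32 CPM, surface epithelium cells 11.2, 12.7, 12.502 and 6.88 CPM, and interstitial cells 10.3, 8.48, 7.11 and 4.84 CPM. The germ interval lay above that of supporting cells at all 4 stages, with ratios of 2.30, 1.60, 2.18 and 2.12. In thinned germ cells 10.6%, 9.23%, 9.30% and 7.14% held a UMI, against 3.48% to 4.44% of supporting cells. At E11.5 the receptors of germ cells were thus unequal, with Acvr2b at 18.7 CPM and Acvr2a at 1.64 CPM, and at E14.5 they were at 15.5 and 7.29 CPM. These 3′ counts carry no term for transcript length, and capture can differ between genes.

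Differences between 2 sums were read by a rule of size, which asked for at least 50 UMIs over both, at least a 2-fold ratio and 95% Poisson intervals that did not overlap. With 24 comparisons of a gene at a stage, supporting cells were higher than interstitial cells in 12 and lower in 2. The same rule was met by 11.4% and 9.19% of all gene-by-stage comparisons with at least 50 UMIs. Each background below is also a share of comparisons with at least 50 UMIs, whereas the 24 include some under that minimum, such as Inhba at E11.5. The 12 were Fst, Inha and Inhbb at all 4 stages, and the 2 were Inhba at E13.5 and E14.5. Against surface epithelium cells, supporting cells were higher in 9 and lower in 0 (background 8.90% and 6.33%), which were Fst and Inha at all stages and Inhbb at E11.5. Against germ cells they were higher in 14 (Fst, Inha and Inhbb at all stages, Acvr2a at E11.5 and E12.5) and lower in 3 (Acvr2b at E11.5, E13.5 and E14.5), where the background was 33.1% and 16.6%. Surface epithelium cells were higher than interstitial cells in 6 comparisons, 4 of them Inhbb, and lower in 1, Inhba at E14.5 (background 4.23% and 5.18%). This last comparison was added after the values were seen. Both classes of each of these ratios come from the same library.

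Between the first and last stage, 1 of the 6 genes met the rule in supporting cells. Inha was 2.38-fold lower (log2 -1.25, 95% interval -1.37 to -1.13). By the same rule 13% of all 12441 genes with enough UMIs were higher and 4.42% lower, and the median log2 change of all genes was 0.13. Fst had a log2 change of -0.64 (-0.71 to -0.57), Inhbb of -0.71 (-0.89 to -0.52), Acvr2a of -0.09 (-0.44 to 0.26) and Acvr2b of -0.15 (-0.51 to 0.21), and Inhba, with 22 UMIs, was under the minimum. The Inha difference was present at the first step, where E12.5 was 2.09-fold lower than E11.5 and Inha was again 1 of 6 genes to meet the rule (background 5.79% higher and 3.26% lower). With cells of exactly 1 class that step was 1.94-fold and no longer met the rule. In surface epithelium cells Fst was 2.50-fold higher at E14.5 (background 8.48% higher and 2.41% lower) and the other 5 did not meet the rule. In interstitial cells Fst was 3.47-fold higher and Acvr2b 2.13-fold lower (background 4.64% and 2.57%). With cells of exactly 1 class the interstitial Fst ratio was 1.43-fold and did not meet the rule, while Acvr2b was 2.58-fold lower there and also met it in surface epithelium cells, at 2.71-fold lower. In germ cells Acvr2a was 4.45-fold and Inhbb 4.17-fold higher, where 29.6% of genes were higher, 7.92% lower and the median log2 change was 0.44, so 2 of 6 is a share near the background.

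Several of these values moved with the overlap of classes. Of supporting cells, 3.39%, 8.33%, 12.49% and 29.7% in order of stage also met the surface epithelium rule, which is 8.26%, 21.8%, 30.1% and 39.5% of surface epithelium cells. The summed level of the 6 surface epithelium check markers within supporting cells was 152, 212, 228 and 359 CPM. Cells of both classes held Fst at 84.4, 66.7, 76.7 and 60.9 CPM, between the cells of the supporting class alone (281, 291, 372 and 249.7 CPM) and those of the surface class alone (5.17, 4.56, 6.71 and 13.2 CPM). With cells of exactly 1 class, the log2 change of Fst from E11.5 to E14.5 in supporting cells was -0.17 in place of -0.64, and that of Inha was -0.80, which no longer met the rule. Acvr2b moved the other way, to -0.97. Inha in supporting-only cells stood at 139, 71.8, 64.4 and 79.8 CPM, with E11.5 still the highest. For Inhbb, cells of both classes lay near supporting-only cells, at 31.3, 26.0, 31.3 and 25.6 CPM against 39.7, 31.0, 29.1 and 26.7 CPM. Cells of the surface class alone were not part of this Inhbb comparison.

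Within the supporting class, Inha was higher in cells with more Fst. At E13.5 the 690 thinned cells with 0 Fst UMIs held Inha at 44.9 CPM, the 349 with 1 at 65.9, the 587 with 2 to 4 at 72.9 and the 183 with 5 or more at 103 CPM. At E12.5 the same groups held 54.3, 82.4, 80.6 and 89.3 CPM, and at E11.5 129, 134, 148 and 162 CPM, a narrower spread. At E14.5 they held 40.9, 69.3, 88.9 and 84.6 CPM, the last from 26 cells. Kitl, which encodes the KIT ligand of supporting cells, ran the same way, with 215, 277, 312 and 389 CPM at E13.5. Bmp2 and Lhx9 ran the other way at that stage, from 78.8 to 36.1 CPM and from 347 to 143 CPM between the lowest and highest group. Krt19, a gene of the surface epithelium rule, was highest in cells without Fst, at 114 CPM in 562 cells at E14.5 against 51.3, 11.6 and 30.8 CPM. Inhbb did not follow Inha, at 29.0, 32.7, 27.9 and 14.2 CPM at E13.5. Cells of 1 library are not replicates, and these groups were formed after the values were seen.

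**Figure D2:**
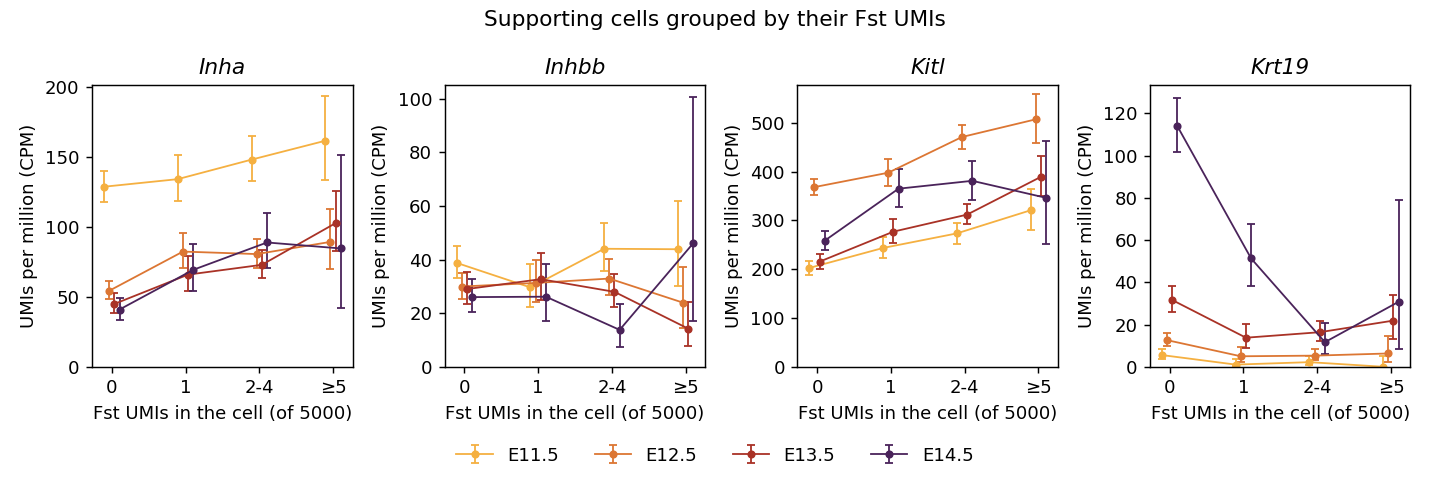
Level (CPM, linear axes) of Inha, Inhbb, Kitl and Krt19 in supporting cells grouped by their number of Fst UMIs after thinning to 5000 UMIs, 1 line per stage. Bars are exact 95% Poisson intervals. Inha and Kitl are higher from 0 to 1 Fst UMI at E12.5 to E14.5 and Krt19 is lower at E14.5 (114 to 51.3 CPM).

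Joint detection was read in the same cells. Thinned supporting cells with UMIs of both Fst and Inha were 23.9%, 15.97%, 16.7% and 12.7% of the class in order of stage, beside 23.2%, 13.98%, 14.1% and 9.30% as the product of the single shares. The ratio of the shares was 1.03, 1.14, 1.19 and 1.37, and in cells of exactly 1 class it was 1.01, 1.09, 1.10 and 1.16. In the whole class the product lay within the exact interval of the observed share at E11.5 and below that interval at the later stages. In cells of exactly 1 class the observed share was above the product at each stage, and the product lay within the interval. Each interval, here and below, covers the joint share alone, although the product comes from single shares of the same cells. A product within the interval therefore does not show that an excess is absent, and joint detection was not tested with the single shares held fixed. Fst and Inhbb occurred together in 9.41%, 7.59%, 7.41% and 4.41%, beside products of 9.34%, 7.47%, 7.80% and 4.69%, each within the exact interval of the observed share. Inha and Inhbb, the 2 subunits of inhibin B, occurred together in 8.26%, 4.12%, 3.15% and 2.46% of supporting cells. The products of their single shares were 7.27%, 3.64%, 2.88% and 2.43%. Fst and Inhba were found together in 0, 0, 1 and 0 thinned supporting cells. Without thinning they were found together in 5, 3, 4 and 5 cells.

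Germ cells give a level at which RNA outside cells, caught in their droplets, could be counted for a somatic gene. In cells of exactly 1 class, the germ level was 1.57%, 1.72%, 0.624% and 1.38% of the supporting level for Fst and 2.06%, 2.55%, 2.01% and 3.61% for Inha. Of the other 6 genes examined, all found in supporting cells, Kitl gave 1.15% to 1.59%, Amhr2 (the AMH receptor) 1.64% to 1.76% and Rspo1 1.22% to 2.501%. Wnt4, whose supporting level the class rule itself raises, gave 1.32% to 2.47%, Lhx9 2.11% to 3.57% and Bmp2 0.980% to 5.34%. Over all cells of each class, Lhx9 was higher in surface epithelium than in supporting cells at each stage, at 510 against 268 CPM at E11.5. Fst lay below the highest of these 6 genes at each stage, whereas Inha, at 2.55%, lay above all 6 at E12.5. How much of the germ cell signal came from outside the cells was not tested. Inhbb was at 1.64%, 1.44% and 2.41% at the first 3 stages and at 8.46% at E14.5, where the highest of the 6 genes was Bmp2 at 5.34%. Acvr2a stood at 19.5%, 22.9%, 49.1% and 98.3%, and Acvr2b at 242%, 181%, 239% and 387%, above the range of those 6 genes at each stage. In the other direction, Dazl, a germ cell gene, was at 0.805, 1.64, 6.40 and 15.1 CPM in supporting-only cells, against 66.2, 281, 515 and 897 CPM in germ-only cells. Endothelial cells held Fst at 5.02 to 11.8 CPM, Inha at 0 to 5.55 CPM and Acvr2a at 5.55 to 9.73 CPM.

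**Figure D3:**
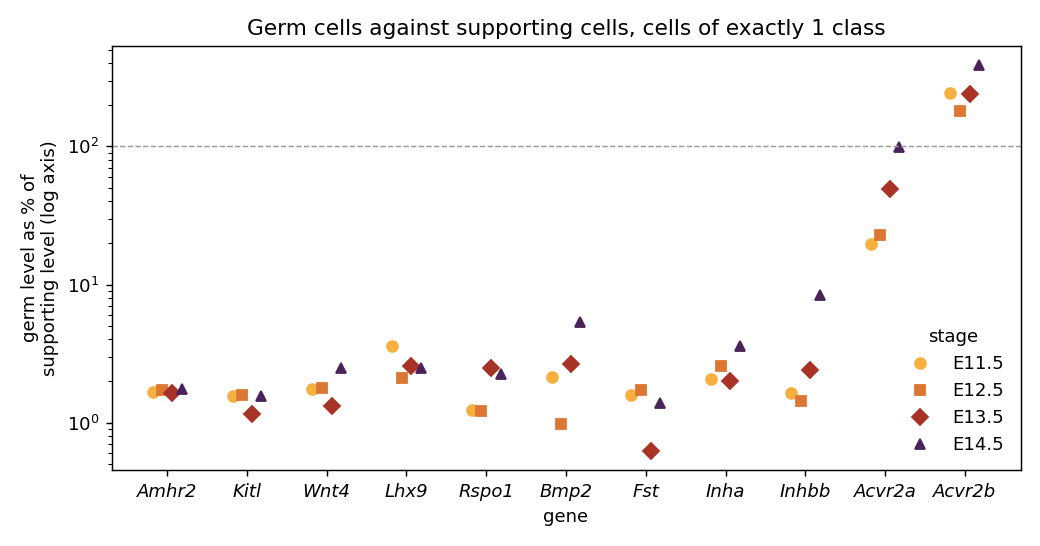
Germ level as a percent of the supporting level (log axis) in cells of exactly 1 class, for 6 other genes found in supporting cells (left) and 5 of the 6 genes, with 1 symbol per stage. Inhba is left out because of its 0 counts in germ cells. The dashed line marks equal levels (100%). Fst and Inha lie within 0.624% to 3.61%, Acvr2a reaches 98.3% at E14.5 and Acvr2b lies above 100% at all stages.

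The rest of the pathway was read from a list of 62 genes, of which 57 were in the table. In supporting cells 39 reached 50 UMIs over E11.5 and E14.5, and 5 of these were higher at E14.5 and 1 lower, with a median log2 change of 0.21 beside 0.13 over all genes. The higher count is near the 13% of all genes, and 4.42% of all genes were lower. The higher genes were Tgfbr2 (0.868 to 4.83 CPM), the TGF-beta type II receptor, Bmpr1b, the ligand genes Tgfb2 (4.70 to 17.5 CPM) and Tgfb3, and Pmepa1 (1.05 to 7.08 CPM), a target that restrains SMAD signalling. The lower gene was Nr0b1, an orphan nuclear receptor of the gonad, at 73.7 and 21.0 CPM. Of the activin branch itself, the type I receptor Acvr1b was at 3.44, 3.82, 5.61 and 3.97 CPM in order of stage, and Acvr1c at 0.623 to 0.997 CPM. The transducers Smad2 (22.2 and 22.4 CPM), Smad3 (15.3 and 22.8 CPM) and Smad4 (29.4 and 38.0 CPM) did not meet the rule between E11.5 and E14.5. Tgfbr3, which encodes betaglycan, the co-receptor of inhibin, was at 3.87, 4.56, 5.94 and 3.58 CPM, and Bambi, a decoy receptor, at 149.2, 95.6, 88.8 and 93.0 CPM. Fstl3, a second activin-binding protein, was at 10.5, 7.60, 7.27 and 6.38 CPM and Fstl1, a relative of follistatin, at 55.7, 70.4, 82.3 and 91.1 CPM. Of the genes known to act upstream of Fst, Wnt4, which the class rule used, was at 301, 252, 278 and 174 CPM, Rspo1 at 114, 95.1, 155 and 119 CPM, and Bmp2 at 59.9, 83.9, 65.6 and 80.6 CPM. None of these 3 met the rule.

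In germ cells 3 genes of the NODAL branch or its relatives, Lefty1, Lefty2 and Gdf3, were lower at E14.5. Of the 39 pathway genes tested there, 11 were higher and 5 lower, with a median log2 change of 0.27 beside 0.44 over all genes. Of all genes there, 29.6% were higher, a share near that of the list, and 7.92% lower. Lefty2, a NODAL antagonist, was at 13.99, 5.22, 0.621 and 0.147 CPM, Lefty1 at 10.1, 3.91, 1.76 and 1.204 CPM, and the ligand Gdf3 at 51.2, 46.5, 29.4 and 11.4 CPM. Nodal itself, at 3.78, 2.45, 1.91 and 0.442 CPM, had 48 UMIs over both stages and was not tested. The other 2 lower genes were Fstl1 (29.6 to 12.9 CPM) and Nr0b1. The higher genes included Tgfbr1 (8.82 to 39.9 CPM), a type I receptor, and Smurf2 (4.54 to 23.6 CPM), a ubiquitin ligase that acts on SMAD proteins and receptors. Acvr1b was at 6.30, 6.15, 5.17 and 3.76 CPM, Acvr1c had 0 UMIs at E11.5 and at most 0.207 CPM later, and Smad2 was at 23.3, 32.3, 36.2 and 32.8 CPM. Smad4 was at 23.1, 29.4, 31.2 and 24.2 CPM and Smad3 at 3.65, 3.23, 5.07 and 2.85 CPM.

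In the other somatic classes the largest pathway ratio among genes that met the rule was that of Acvr1c in the surface epithelium. This type I receptor, known as ALK7, was at 4.58, 2.25, 0.548 and 0.333 CPM (58, 29, 6 and 3 UMIs). In interstitial cells it ran the same way, at 7.08, 2.48, 0.998 and 0.242 CPM, with 38 UMIs over E11.5 and E14.5, under the minimum. In surface epithelium cells 5 of 40 tested pathway genes were higher at E14.5, Bmp2 (28.0 to 71.6 CPM) among them, and 4 lower, including Smad6 (9.87 to 4.88 CPM), an inhibitory SMAD. Of all genes of that class, 8.48% were higher and 2.41% lower. In interstitial cells 3 of 35 were higher and 0 lower, beside 4.64% and 2.57% of all genes. These were Pmepa1 (16.8, 27.3, 41.7 and 44.6 CPM), Smad7 (39.6, 63.1, 78.2 and 87.9 CPM), an inhibitor of the pathway that it is a target of, and Tgfb3 (9.57 to 21.6 CPM). With 1 library per stage, differences of this size between classes and stages were not tested.

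**Figure D4:**
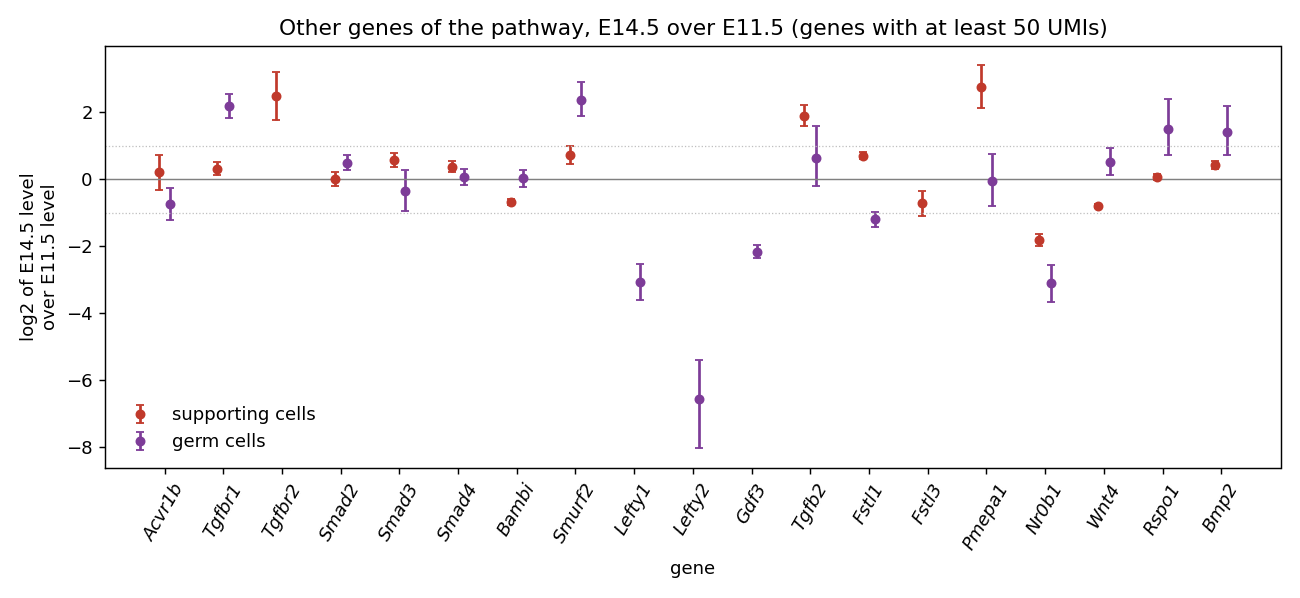
Log2 ratio of the E14.5 level over the E11.5 level in supporting and germ cells for 19 pathway genes, shown where a gene had at least 50 UMIs. Bars are exact 95% intervals of the ratio and dotted lines mark 2-fold. Lefty1, Lefty2 and Gdf3 lie below the lower line in germ cells, and Tgfbr2, Tgfb2 and Pmepa1 above the upper line in supporting cells.

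The genes whose levels over the 16 sums of 4 classes and 4 stages were most like those of Fst were Dhrs11 (Pearson r = 0.99), Lzts1 (0.98) and E330017L17Rik (0.98), out of 7989 genes with at least 20 CPM in any sum. Those most like Inha were Slc25a20 (0.99), Kctd14 (0.98) and 2700046G09Rik (0.98), and those most like Inhbb were Fam136a (0.98), Rgs11 (0.98) and Bmp2 (0.97). Among the 6 genes, Inha correlated with Fst at 0.94 and with Inhbb at 0.89, Fst with Inhbb at 0.82, and Acvr2b with these 3 at -0.43 to -0.55. Sums of 1 stage share a library, so these values are descriptions. Inhba, Acvr2a and Acvr2b stayed under 20 CPM in every sum and were not used as a starting gene.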

How the data were processed

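Single-cell libraries of gonads from XX embryos were made with the 10x Chromium 3′ version 2 kit, per the labels' protocols. Reads were processed with Cell Ranger 2.2.0 and the mm10 genome, per the submitters' processing notes; annotation, strand setting and cell filters are not given in the sources used here. The table deposited by the authors holds natural log values. Their form, the log of 1 plus a gene's UMIs per 10000 UMIs in that cell, was inferred from the numbers: within each cell, undoing the log gave whole multiples of 1 smallest step for 100% of the 69792436 values above 0 (tolerance 1e-06). The UMIs so recovered were used throughout. Cells with over 20% mitochondrial UMIs (3, 1, 1 and 0 in order of stage) and the 113, 104, 106 and 94 doublets called per library by Scrublet (scanpy 1.11.5, expected rate 0.06, seed 1) were left out, 1.96% to 2.30% of cells.

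UMIs were summed per class and library and divided by all UMIs of those cells, with exact Poisson 95% intervals. Log2 ratios carry the exact binomial interval of the split of counts, and shares the Clopper-Pearson interval. Shares used cells thinned to 5000 UMIs, which left out 0 cells. Intervals and limits for a count of 0 (3 counts) cover counting error only. Other cell types needed 3 of 5 markers, or for erythroid cells 20% globin UMIs. Python 3.11.15, numpy 2.4.6 and scipy 1.17.1 were used, and the rule of size was tested on simulated counts. Promoter windows were found for 5 of the 6 genes, and 2 are shown.

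Named pathway genes were a set always given (among them Acvr1b, Smad2 and Bambi) and those with the largest ratio in their group among genes that met the rule. Bmpr1b, Lefty1, Gdf3, Nodal, Amhr2 and Lhx9 were named after their values were seen. The groups by Fst UMIs, the splits by Inhba and by Stra8, the 6 genes set beside the members in germ cells and the motifs were chosen after values were seen. The members and lists were chosen with earlier results of these data known. Alternatives were cells of exactly 1 class, called doublets kept, at least 10000 UMIs per cell, class rules on thinned cells, stricter class rules, the mean of per-cell CPM, median-of-ratios scaling, thinning to 2000 UMIs or none, and a 4-fold rule.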

Additional observations from a re-analysis of the deposited data

Results flagged for a closer look

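Changes from E11.5 to E14.5 had opposite signs in pairs of classes, with both 95% intervals clear of 0, for 3 of the 6 genes, and the difference itself was not tested, since each stage has 1 library. For Fst, the log2 change was 1.32 in surface epithelium cells and -0.64 in supporting cells, a difference of 1.97, and 1.79 in interstitial cells, a difference of 2.44 from supporting cells. Beside this, the share of surface epithelium cells that also met the supporting rule was 8.26% at E11.5 and 39.5% at E14.5, and in cells of the surface class alone Fst stood at 5.17 and 13.2 CPM. In interstitial cells of exactly 1 class Fst stood at 7.08, 5.93, 3.52 and 10.1 CPM in order of stage.

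For Inha, the log2 change was 0.65 in surface epithelium cells and -1.25 in supporting cells, a difference of 1.90. With cells of exactly 1 class the Inha change in supporting cells was -0.80. The surface epithelium value includes cells that also met the supporting rule, 8.26% of that class at E11.5 and 39.5% at E14.5. For Inhbb, the log2 change was 2.06 in germ cells, from 5 UMIs at E11.5 to 107 at E14.5, and -0.71 in supporting cells, a difference of 2.77. The median log2 change of all genes in germ cells was 0.44, against 0.13 in supporting cells. E14.5 germ cells with and without Stra8 held Inhbb at 2.64 and 2.57 CPM.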

How the results depend on the processing

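No paired analysis was possible because each stage has 1 library. Which results count as main ones was decided after the data had been seen. The log2 change of Fst in supporting cells from E11.5 to E14.5 was negative throughout, at -0.17 with cells of exactly 1 class, -0.57 with cells of at least 10000 UMIs, -0.45 with class rules on thinned cells, -0.50 with stricter class rules, -0.74 as the mean of per-cell CPM and -0.85 with median-of-ratios scaling, which lowered each change of this comparison by 0.20 (log2 -0.20). That of Inha was -0.80, -1.11, -1.03 and -1.45 with exactly 1 class, thinned rules, stricter rules and median-of-ratios scaling. That of Inhbb was -0.91 with median-of-ratios scaling, and that of Acvr2b was -0.97 with exactly 1 class and -0.51 with stricter rules. The count of genes that met the rule in supporting cells was 0 in place of 1 with exactly 1 class and with a 4-fold rule. Of the 2 cases with supporting cells lower than interstitial cells, 0 were left with exactly 1 class, at least 10000 UMIs, thinned rules or stricter rules, since these leave fewer Inhba UMIs. With a 4-fold rule 0 of the 3 cases with supporting cells lower than germ cells were left.

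The share of supporting cells with Fst, in order of stage, was 34.5%, 34.2%, 41.7% and 24.9% with thinning to 2000 UMIs and 73.0%, 69.6%, 75.8% and 57.8% without thinning. With exactly 1 class it was 56.2%, 57.2%, 68.2% and 56.8%, so that E14.5 was not lower than E11.5 or E12.5. The share with Fst and Inha was 8.15%, 5.12%, 4.81% and 3.69% with thinning to 2000 UMIs, 53.9%, 36.9%, 36.7% and 30.6% without thinning, and 18.9% and 18.8% at the last 2 stages with exactly 1 class. Fst, Inha, Inhbb, Inhba and Acvr2b kept their highest class under each class rule tried, and that of Acvr2a changed. Depth limits Inhba most, with 280 UMIs in all.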
